A study of Mus musculus with 32 samples.

Results

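Kdr, Flt1 and Flt4 encode the receptors for the vascular endothelial growth factors (VEGF), Nrp1 encodes a co-receptor, Vegfa encodes the main ligand, Tek and Tie1 encode the angiopoietin receptor and its partner, and Cdh5, Pecam1 and Cldn5 encode junction proteins of endothelial cells. The 10 genes were described in 32 poly(A) RNA libraries from mouse cortical neuron cultures, in which 49671 genes were counted. They were chosen by name, and Kdr was chosen because earlier results of these data showed it lower at 5 d than in untreated cultures with all 3 oligoribonucleotides. That difference and its fitted error are therefore given below as a description, and no test of it is used. The comparisons of the other 9 genes and of the 3 oligoribonucleotides with each other were not used in choosing Kdr. The comparison of the 2 times shares the untreated 5 d libraries with that choice, so for Kdr it is also a description.

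VEGF-A binds KDR (VEGFR2), which carries most of the growth signal of this ligand in blood vessels, and FLT1 (VEGFR1) binds the same ligand more tightly with a weaker kinase response. FLT4 (VEGFR3) responds to VEGF-C and VEGF-D and is best known from lymphatic vessels. Angiopoietins act on TEK (TIE2), with TIE1 as its partner, to stabilise vessels. In the brain, neurons and glia supply VEGF-A, while the receptors, VE-cadherin (Cdh5), PECAM1 (CD31) and claudin 5 are typical of endothelium, and Nrp1 is also an axon guidance receptor of neurons.

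The cultures came from the forebrains of wild-type C57BL/6 mice at embryonic day 17 to 18, after meninges and superficial vessels had been taken away, and were kept in Neurobasal medium with B27. They were left untreated or received 1 of 3 extracellular synthetic RNAs, namely miR-124-5p, Mut.oligo or miR-92a-1-5p, for 6 h or 5 d, with 4 libraries in each of the 8 groups. Both miRNAs have been linked to Alzheimer's disease, and Mut.oligo carries a mutated let-7b sequence and served as the sequence control. All 3 RNAs had phosphorothioate bonds, the dose was 10 µg/mL, and untreated cultures received no RNA, so an effect of any added RNA and an effect of its sequence are told apart only by comparing the oligoribonucleotides with each other. The labels name an experiment batch for each library (lettered A to G at 6 h and H to M at 5 d), and no batch held libraries of both times. Whether the 4 libraries of a group came from separate animals was not given beyond their numbering as biological replicates, so p-values measure the spread between these libraries.

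The sequences of the 2 miRNAs found in RefSeq (GRCm38.p6) are shown because they are what was added to the cells, or, for let-7b, what Mut.oligo was derived from. No entry named miR-124-5p was found among the sequences used, so its sequence is not shown, though the study's methods give it. Capitals mark the seed, bases 2 to 8. Mature miR-92a-1-5p is encoded at chr14:115044437-115044459 on the plus strand and let-7b-5p at chr15:85707325-85707346 on the plus strand, and their seeds differ.
mmu-miR-92a-1-5p: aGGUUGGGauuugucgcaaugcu
mmu-let-7b-5p: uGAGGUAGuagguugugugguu

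The 3 VEGF receptor genes lie on chromosomes 5 and 11 (GRCm38, gene limits from GENCODE). Kdr is at chr5:75932827-75978458 on the minus strand, Flt1 at chr5:147561604-147726011 on the minus strand and Flt4 at chr11:49609263-49652739 on the plus strand. Their RefSeq promoters (GRCm38.p6, 250 bases before to 50 after the start) are shown because Kdr was measured at a higher level than the related Flt1 and Flt4 in the same libraries. Capitals mark matches on either strand to the GC box, GGGCGG, and to an ETS core, CCGGAA, the kind of site bound by ETS factors of endothelium. The windows are chr5:75978406-75978705 for Kdr, chr5:147725962-147726261 for Flt1 and chr11:49609429-49609728 for Flt4.
Kdr: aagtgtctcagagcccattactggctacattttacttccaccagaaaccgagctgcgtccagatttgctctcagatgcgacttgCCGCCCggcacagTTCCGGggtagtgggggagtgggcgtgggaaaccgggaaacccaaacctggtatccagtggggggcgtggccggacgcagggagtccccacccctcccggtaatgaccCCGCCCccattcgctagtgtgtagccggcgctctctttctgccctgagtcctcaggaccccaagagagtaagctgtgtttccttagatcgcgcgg
Flt1: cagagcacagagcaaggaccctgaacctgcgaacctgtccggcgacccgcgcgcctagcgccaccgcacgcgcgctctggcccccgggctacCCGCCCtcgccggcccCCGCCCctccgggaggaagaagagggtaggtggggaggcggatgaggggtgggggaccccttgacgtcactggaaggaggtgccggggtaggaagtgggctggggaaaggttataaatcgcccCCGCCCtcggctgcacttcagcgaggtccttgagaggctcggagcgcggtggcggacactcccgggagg
Flt4: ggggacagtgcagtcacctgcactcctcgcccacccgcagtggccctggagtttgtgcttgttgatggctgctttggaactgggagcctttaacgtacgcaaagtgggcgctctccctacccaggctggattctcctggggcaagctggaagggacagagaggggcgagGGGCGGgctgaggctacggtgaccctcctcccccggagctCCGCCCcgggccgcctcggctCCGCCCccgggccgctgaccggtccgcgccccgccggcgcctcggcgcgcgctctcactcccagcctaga
The Kdr window held 2 GC boxes and 1 ETS core, and those of Flt1 and Flt4 held 3 GC boxes each and no ETS core of these letters. Of 32544 promoter windows of the same length, 35.9% held the GC box and 15% the ETS core, so neither match is rare. A TATAAA box, present in 13.6% of windows, was found in the Flt1 window and not in the other two. A match to these letters is a description of the sequence and no evidence of binding.

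The cultures held the ligand and the co-receptor at high level, Kdr at a low level and the other receptors near the limit of counting. Library totals ranged from 24514090 to 73626029 counts. Levels below are CPM, the usual unit of counts scaled to a common library total, so that 3 counts correspond to 0.0407 to 0.122 CPM. Totals were adjusted by TMM factors, and levels of different genes are compared only as CPM per kilobase of exon. The median per kilobase over the 32 libraries was 12.4 for Vegfa and 9.99 for Nrp1. It was 0.325 for Kdr, 0.174 for Pecam1 and 0.0823 for Cdh5. Cldn5, Tek, Flt4, Flt1 and Tie1 followed at 0.0244, 0.0227, 0.0193, 0.0140 and 0.00338 CPM per kilobase.

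**Figure D1:**
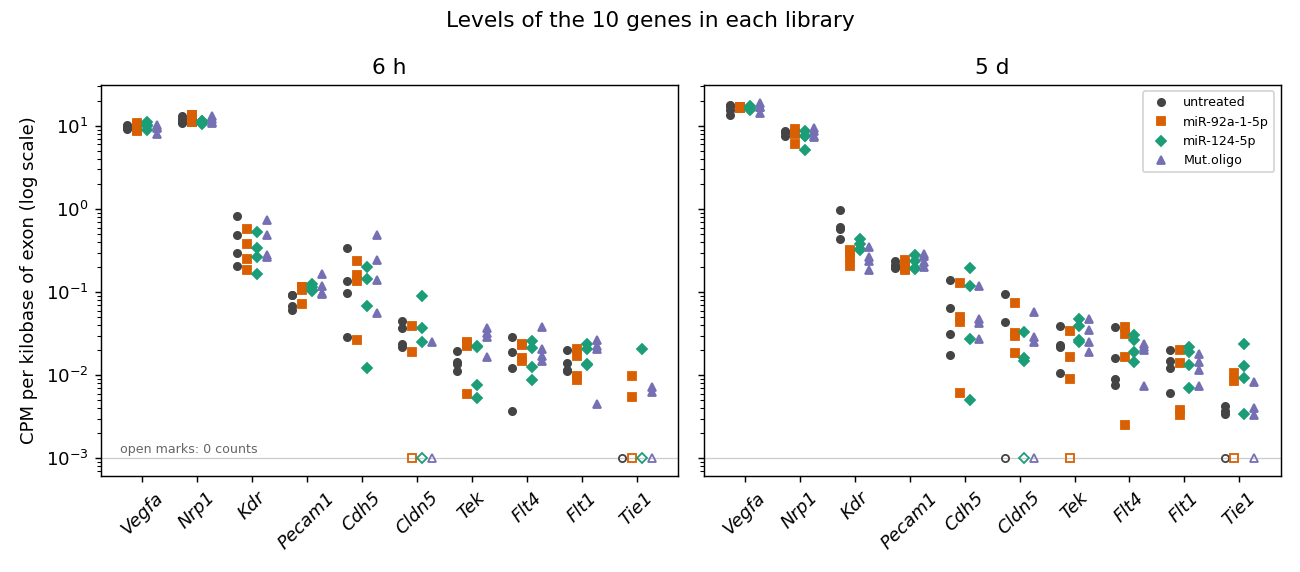
Level of each of the 10 genes in each library at 6 h and 5 d, in CPM per kilobase of exon on a log axis; each mark is 1 library, its colour and shape give the group, and open marks at the bottom stand for libraries with 0 counts. Vegfa and Nrp1 lie far above the rest, Kdr comes next, and Tie1 and Cldn5 have libraries at 0.

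The order below Kdr rests on few reads. Flt1 had 2 to 17 counts in a library, Flt4 1 to 19, Tek 0 to 11 and Cldn5 0 to 8. Tie1 had 0 to 5 counts, was at 0 in 15 of 32 libraries and had 32 counts in all, so it did not pass the count filter at either time. Cldn5, the most abundant tight junction protein of the brain endothelium, was at 0 in 10 of 32 libraries and passed the filter only at 5 d. The ranges of Cldn5, Tek, Flt4 and Flt1 overlapped per kilobase, and their order was not resolved at this depth. Kdr, with 58 to 525 counts in a library, was above Flt1 and Flt4 per kilobase in the same libraries: its lowest value was 0.167 CPM per kilobase, and the highest were 0.0263 for Flt1 and 0.0384 for Flt4.

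Neuron markers were high and endothelial markers were uneven. The summed level of 10 neuron markers ranged from 4438 to 6727 CPM over the 8 groups. Some defining endothelial genes were at or near 0. The transcription factor Erg had 0 to 12 counts and was at 0 in 10 of 32 libraries, Sox17 had 0 to 2 counts, Icam2 0 to 4, Robo4 0 to 4, and the brain endothelial transporter Slc38a5 0 to 1. Others of the same lists were counted in every library, with 113 to 582 counts of Plvap, a protein of fenestrated endothelium, 35 to 206 of Egfl7, 7 to 74 of Cd34, 3 to 90 of the transcription factor Sox7 and 74 to 434 of Tal1, a transcription factor that some neurons also make. In bulk RNA of this kind, fewer cells of a type and less RNA per cell cannot be told apart.

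At 5 d, Kdr was lower with each oligoribonucleotide than in untreated cultures. The 4 untreated libraries had 8.75 (batch L), 3.93 (M), 5.54 (I) and 5.22 (J) CPM. With miR-92a-1-5p, Kdr was at 2.78 (K), 2.87 (L), 2.31 (H) and 1.84 (J) CPM. With Mut.oligo it was at 3.18 (L), 1.66 (M), 2.37 (H) and 2.12 (J) CPM. With miR-124-5p it was at 2.96 (K), 3.94 (L), 3.47 (H) and 2.90 (J) CPM. Every library with miR-92a-1-5p or Mut.oligo lay below every untreated one, whereas the highest library with miR-124-5p, at 3.94 CPM, just exceeded the lowest untreated one, at 3.93 CPM. Over the 19333 genes tested, 1.61% had all 4 libraries with miR-92a-1-5p below all 4 untreated ones, and 1.29% did so with Mut.oligo.

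The mean Kdr level at 5 d was 5.86 ± 2.05 CPM (SD, n = 4) untreated, 2.45 ± 0.474 with miR-92a-1-5p, 3.32 ± 0.487 with miR-124-5p and 2.33 ± 0.640 with Mut.oligo (n = 4 each). The fitted log2 differences from untreated were -1.26 (SE 0.23) with miR-92a-1-5p, -0.81 (SE 0.23) with miR-124-5p and -1.33 (SE 0.23) with Mut.oligo. The untreated group was the most spread, and the library of batch L was its highest. Without that library the differences were -1.0, -0.56 and -1.07 in the same order.

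**Figure D2:**
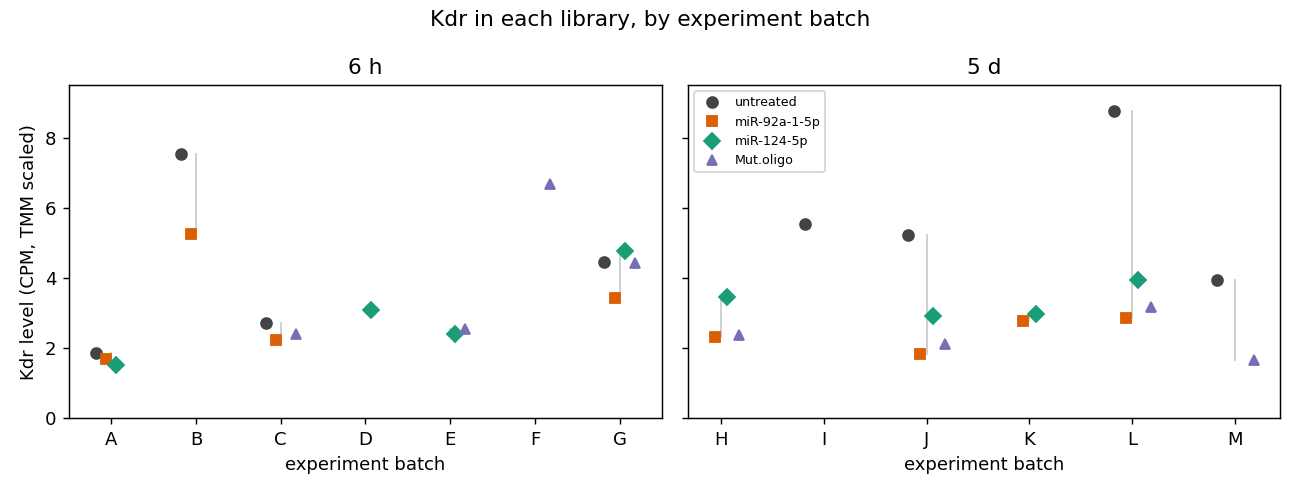
Kdr level in CPM in each library against the experiment batch of the labels, at 6 h (left) and 5 d (right); each mark is 1 library, colour and shape give the group and a grey line spans a batch. At 5 d the untreated library is the highest of its batch in J, L and M, while at 6 h libraries of 1 batch lie close together and batches differ.

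Kdr was also lower inside each batch that held both kinds of library at 5 d. Untreated libraries shared a batch with miR-92a-1-5p in L and J, with miR-124-5p in L and J, and with Mut.oligo in L, J and M. In that order the log2 difference was -1.59 and -1.48 with miR-92a-1-5p, -1.14 and -0.84 with miR-124-5p, and -1.44, -1.28 and -1.22 with Mut.oligo, so Kdr was lower in all 7 of these pairs of libraries. With batch as a term in the fit, the differences of Kdr were -1.46 (SE 0.12), -1.01 (SE 0.11) and -1.37 (SE 0.11). The 3 contrasts share the same untreated libraries.

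The test at 5 d is given for the genes of the set other than Kdr, which was chosen on these contrasts. None of those tested passed it in the fit without batch. A gene was called past an adjusted p of 0.05 in edgeR's quasi-likelihood test and a log2 difference of 0.5 in size. Of the 19333 genes tested, 0.00517% were called with miR-92a-1-5p and 0% with the others. With batch as a term, 0.352% were called with miR-92a-1-5p, 0.0259% with miR-124-5p and 0.0466% with Mut.oligo. Of the 8 others that passed the filter, 0 were called with any oligoribonucleotide by edgeR's quasi-likelihood test, 0 had an unadjusted p under 0.05, and DESeq2, which called 0.15% of all genes with miR-92a-1-5p, 0% with miR-124-5p and 0.0155% with Mut.oligo, also called 0 of the 8. The smallest adjusted p of edgeR was 0.999, and with batch as a term it was 0.189, for Nrp1 with miR-92a-1-5p. Their fitted log2 differences spread on both sides of zero, with 5 of 8 below it and a median of -0.0487 with miR-92a-1-5p, 2 of 8 and 0.169 with miR-124-5p, and 3 of 8 and 0.0125 with Mut.oligo. The median over all genes tested lay between -0.001278 and 0.003098.

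Pecam1, an adhesion molecule of endothelium that is also made by platelets and leukocytes, was the best counted junction gene at 5 d, with 48 to 108 counts. Its mean level was 1.32 ± 0.105 CPM untreated, 1.28 ± 0.173 with miR-92a-1-5p, 1.41 ± 0.260 with miR-124-5p and 1.54 ± 0.239 with Mut.oligo (SD, n = 4 each). The log2 differences were -0.04 (SE 0.17), 0.10 (SE 0.17) and 0.23 (SE 0.17), and the ranges of all 4 groups overlapped.

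Cdh5, the adherens junction cadherin of endothelium, varied more between batches than between groups. At 5 d it had 1 count in both libraries of batch K, 4 in the single library of batch I, 5 to 8 in batch J, 10 to 13 in M, 10 to 21 in H and 25 to 48 in L. Its log2 differences from untreated were -0.11 (SE 0.82) for miR-92a-1-5p, 0.47 (SE 0.78) for miR-124-5p and -0.12 (SE 0.81) for Mut.oligo. These errors are so wide that a fall of Cdh5 as large as that of Kdr was not detectable without the batch term. With it the values were -0.05 (SE 0.36), 0.48 (SE 0.35) and -0.35 (SE 0.33).

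Nrp1 and Vegfa were measured precisely and differed little. Nrp1 was at 80.9 ± 5.15 CPM untreated, 77.7 ± 13.2 with miR-92a-1-5p, 71.8 ± 15 with miR-124-5p and 80.9 ± 9.93 with Mut.oligo. Vegfa was at 69.4 ± 8.02 CPM untreated, 71.7 ± 0.624 with miR-92a-1-5p, 70.8 ± 3.34 with miR-124-5p and 72.2 ± 8.07 with Mut.oligo (SD, n = 4 each). In the shared batches the log2 difference of Nrp1 lay between 0.02 and 0.15 and was above 0 in all 7 pairs, where Kdr was below in all 7. For Vegfa it lay between -0.10 and 0.11. Neither gene was called against untreated at 5 d under any setting.

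**Figure D3:**
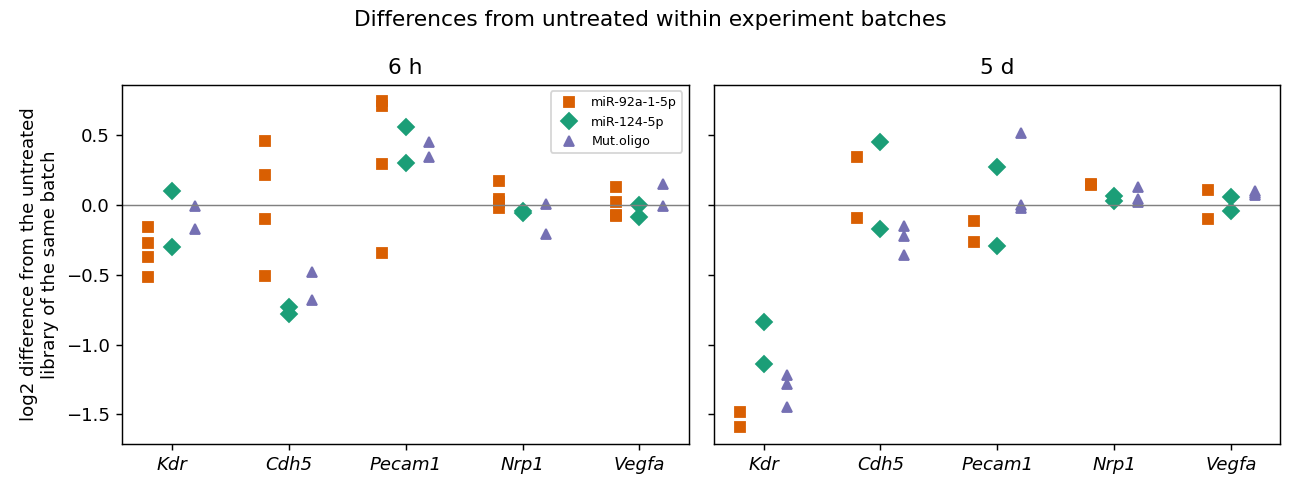
Log2 difference between a library with an oligoribonucleotide and the untreated library of the same experiment batch, for the 5 best counted genes, at 6 h and 5 d; each mark is 1 pair of libraries. At 5 d the marks of Kdr lie between -1.59 and -0.84, while those of Nrp1 and Vegfa lie within 0.15 of zero and those of Cdh5 and Pecam1 fall on both sides of it.

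At 6 h, the levels of Kdr followed the batch and showed no difference between groups past the threshold. The untreated libraries had 2.7 (batch C), 7.53 (B), 1.87 (A) and 4.45 (G) CPM. The means were 4.14 ± 2.50 CPM untreated, 3.15 ± 1.58 with miR-92a-1-5p, 2.94 ± 1.38 with miR-124-5p and 4.01 ± 2.01 with Mut.oligo (SD, n = 4 each), and all groups overlapped. The means of the 5 batches with 2 or more libraries spread over 1.88 on the log2 scale, and the widest range inside a batch was 0.51. At 5 d the means of 5 such batches spread over 0.71, and the widest range of Kdr inside a batch was 1.59. That range is untreated against miR-92a-1-5p in batch L, a contrast used to choose Kdr. Batches H and K held no untreated library, so these spreads are not set against those at 6 h.

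The fitted log2 differences of Kdr at 6 h were -0.37 (SE 0.45) for miR-92a-1-5p, -0.50 (SE 0.46) for miR-124-5p and -0.02 (SE 0.46) for Mut.oligo, none past the threshold of edgeR's test (smallest adjusted p = 0.992). The difference for miR-92a-1-5p was negative in all 4 shared batches, between -0.51 and -0.15. With batch as a term it stayed at -0.37 with a much smaller error (SE 0.11, adjusted p = 0.136), while that for miR-124-5p became -0.11 and that for Mut.oligo -0.10. No gene passed the main test at 6 h with any oligoribonucleotide (0% of 18755), and with the batch term 0.208% did with miR-92a-1-5p, 0% with miR-124-5p and 0.0213% with Mut.oligo, Kdr not among them. Whether the effect on Kdr differed between 6 h and 5 d was not tested, as the 5 d contrast was used to choose it.

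Of the 7 other genes that passed the filter at 6 h, 0 were called in any comparison with untreated by edgeR or by DESeq2, which called 0.0533% of all genes with Mut.oligo and 0% with the 2 miRNAs. In edgeR, 1 gene had an unadjusted p under 0.05 with Mut.oligo, 1 with miR-124-5p and 0 with miR-92a-1-5p. Pecam1 came nearest. Its untreated libraries lay between 0.381 and 0.584 CPM, those with miR-124-5p between 0.642 and 0.786 and those with Mut.oligo between 0.592 and 1.03, so these groups did not overlap, which 1.58% and 1.7% of genes also showed in this direction. With miR-92a-1-5p its range was 0.443 to 0.727 CPM. The log2 differences of Pecam1 were 0.53 (SE 0.25), 0.63 (SE 0.25) and 0.38 (SE 0.24) for miR-124-5p, Mut.oligo and miR-92a-1-5p, and the smallest adjusted p of edgeR's test was 0.461. These values rest on 12 to 50 counts in a library.

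The 3 oligoribonucleotides did not differ from each other in any of the 10 genes past the threshold. At 5 d, Kdr differed by 0.07 (SE 0.23) for miR-92a-1-5p against Mut.oligo, by -0.45 (SE 0.23) for miR-92a-1-5p against miR-124-5p, and by 0.51 (SE 0.23) for miR-124-5p against Mut.oligo on the log2 scale. All 4 libraries with miR-92a-1-5p were below all 4 with miR-124-5p, as were 0.817% of the genes. In the fit with batch, that difference was -0.45 (SE 0.10) with an adjusted p of 0.425, and between miR-124-5p and Mut.oligo it was 0.36 (SE 0.11) with an adjusted p of 0.998. Without the batch term the adjusted p of Kdr was 1.00 in each of the 3 comparisons. At 5 d, 0% of all genes were called between any 2 oligoribonucleotides without the batch term. With it, 0.0103% were called for miR-92a-1-5p against either of the others and 0% for miR-124-5p against Mut.oligo. At 6 h, Kdr differed by -0.35 (SE 0.45), 0.12 (SE 0.46) and -0.47 (SE 0.47) in the same 3 comparisons, and 0% of all genes were called in either fit. Among the other genes 0 were called in the 6 comparisons, and those with the widest fitted differences, Tek, Cldn5 and Cdh5, had few counts.

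For the genes with a test of the difference of effects between times, 24 such interactions were computed over 8 genes and 3 oligoribonucleotides, and 0 passed (smallest adjusted p = 0.866, edgeR over 20425 genes).

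In untreated cultures the genes of the set went separate ways between 6 h and 5 d. Pecam1 rose from 0.490 ± 0.104 to 1.32 ± 0.105 CPM and Vegfa from 41.6 ± 1.84 to 69.4 ± 8.02 CPM, and Nrp1 fell from 116 ± 9.34 to 80.9 ± 5.15 CPM (SD, n = 4 each). The log2 differences were 1.43 (SE 0.20, adjusted p = 7.40e-07) for Pecam1, 0.74 (SE 0.09, adjusted p = 1.99e-08) for Vegfa and -0.52 (SE 0.12, adjusted p = 0.000561) for Nrp1 by edgeR's quasi-likelihood test, and in each of these genes the groups did not overlap, as in 23.6% of all genes for a rise and 24.3% for a fall. Kdr was 0.50 higher (SE 0.37), which only describes it, as the untreated 5 d libraries entered its choice. Cdh5 had a difference of -1.27 (SE 0.81, adjusted p = 0.189 in edgeR's test), not past the threshold. Flt1, Flt4, Tek and Cldn5 were not called either. The background was high, as 33.5% of 20425 genes were called, and time and experiment batch cannot be told apart here. Without the untreated 6 h library of replicate 2, which held the highest Kdr of its group, the difference of Kdr was 0.95 (SE 0.38). Nrp1, whose difference is close to the limit of 0.5, was not called without untreated 5 d replicate 1 or 4 or without untreated 6 h replicate 1, with differences of -0.49, -0.43 and -0.43.

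Over the 16 libraries at 6 h, Kdr rose and fell with Cdh5 and with no other gene of the set. Pearson's r of log2 CPM was 0.81 and Spearman's rho 0.79 (n = 16, permutation p = 0.00012 and 0.00058, adjusted p = 0.00216 and 0.0104 over 18 relations). The permutation exchanged libraries freely between batches. These p-values therefore count libraries of 1 batch as independent and are too small where batches differ. Without the 2 libraries farthest from the median of Kdr, r was 0.88. The relation was not particular to Cdh5. Of 13475 genes with a mean of at least 1 CPM at 6 h, 1.33% had a higher r with Kdr. The fibroblast and meningeal markers Lum, Dcn, Col1a2, Col1a1 and Pdgfra had r of 0.87, 0.85, 0.83, 0.82 and 0.48 over the same libraries. Within batches the relation did not hold: with batch means removed, r was 0.08 (adjusted p = 0.869), and over the means of the 7 batches r was 0.86. Batch A was low in both genes, with 1.51 to 1.87 CPM of Kdr and 2 to 4 counts of Cdh5, and batches F and G were high in both, with 24 to 58 counts of Cdh5. Batch B stood apart, with the highest untreated level of Kdr and 18 to 50 counts of Cdh5.

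**Figure D4:**
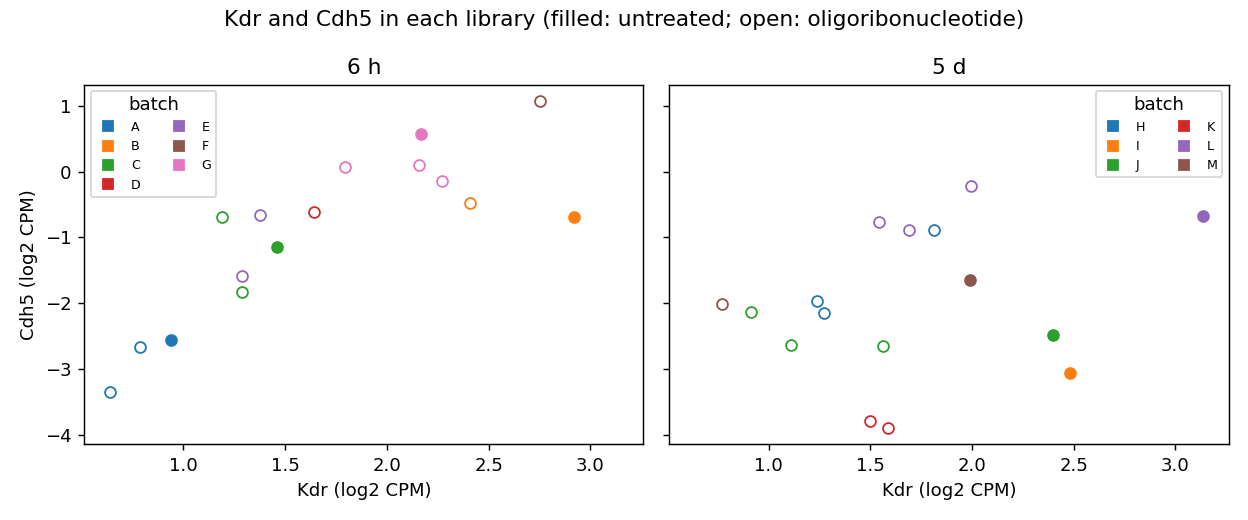
Log2 CPM of Cdh5 against Kdr in each library at 6 h (left) and 5 d (right), coloured by experiment batch; filled marks are untreated and open marks are libraries with an oligoribonucleotide. At 6 h the batches run from A at the lower left to F at the upper right, with B below the others at its level of Kdr, and at 5 d the filled marks lie to the right of the open marks of their batch at about the same height.

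At 5 d the untreated libraries were left out of this relation, because Kdr was chosen for its difference from them. Over the 12 treated libraries, r of Kdr with Cdh5 was 0.36 and rho 0.33 (permutation p = 0.254 and 0.294, adjusted p = 0.812 and 0.755). Of the other genes, Cldn5 had the widest value, r = -0.60 (adjusted p = 0.360), and Pecam1, Nrp1 and Vegfa had r of 0.03, -0.18 and 0.12. With batch means removed, Tie1 had r = 0.81 (adjusted p = 0.0211) and rho = 0.79 (adjusted p = 0.10), from 0 to 5 counts in a library. Of the 18 relations, that of Cdh5 at 6 h was the only one past the threshold by both measures before batch means were removed.

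The genes most like Kdr in level at 5 d were sought among 13622 genes with a mean of at least 1 CPM, which leaves out Flt1, Flt4, Tek, Tie1, Cdh5 and Cldn5. The highest r over the 16 libraries was that of Col4a6, a basement membrane collagen chain (0.90), followed by Shroom3, a regulator of apical actin (0.85), and Lfng, a glycosyltransferase that modifies Notch (0.83). Tpm4, a tropomyosin, the lipid transporter Abca7, the G1 kinase Cdk6 and the fibrillar collagen chain Col5a2 had r of 0.81 each. Vasn, a membrane protein that binds TGF-beta, and Tagln, an actin-binding protein of smooth muscle, had r of 0.80, and Ccnd1, the cyclin partner of Cdk6, had 0.79. These values are a description over libraries that share batches and include the contrast used to choose Kdr. Nrp1, Vegfa and Pecam1 ranked 5887, 7221 and 7438 in that order, with r of 0.05, -0.04 and -0.06, and of the members below 1 CPM, Flt4 and Cdh5 had r of 0.25 each and Cldn5 had -0.36. The same 10 genes had r with Kdr between -0.20 and 0.85 at 6 h, the lowest being Abca7 and the highest Shroom3.

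No gene of the pathway lists was called at 5 d, where few genes of any kind were. Of 6 tested ligand genes besides Vegfa, 0 were called with any oligoribonucleotide, and the medians of their log2 differences were -0.01 with miR-92a-1-5p, 0.15 with miR-124-5p and -0.13 with Mut.oligo. They include Vegfb, Angpt1 and Vegfd, the latter 2 encoding ligands of TEK and of FLT4. Of the 4 co-receptors and receptor partners, among them Nrp2, Plxnd1 and the phosphatase Ptprb, 0 were called, with medians of -0.13, -0.15 and 0.01 in the same order. Of 13 tested genes of VEGF receptor signalling and response, among them Plcg1, Rcan1 and Notch1, 0 were called, with medians of -0.11, -0.04 and -0.13 in the same order. All of these counts were also 0 with batch as a term and at 6 h. The r of members of these lists with Kdr over the 16 libraries at 5 d ran from -0.30 for Angpt4 to 0.69 for Nfatc1. It was 0.68 for Notch1 and 0.67 for Angpt1, but -0.27 for Rcan1, -0.14 for Plcg1, -0.25 for Plxnd1 and -0.13 for Nrp2. These genes were chosen after their values were seen. The values are a description over libraries that share batches and include the contrast used to choose Kdr.

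Among the lists of endothelial markers, 1 gene was called at 5 d, Ets1, in the fit with batch and not in the fit without it. Of 11 tested pan-endothelial genes, 0 were called at 5 d, with median log2 differences of -0.02 with miR-92a-1-5p, 0.10 with miR-124-5p and 0.06 with Mut.oligo. Their summed level was 115.5 to 202.7 CPM untreated and 120.0 to 173.8 CPM over the treated groups, and 109.6 CPM of the 5 d mean came from S1pr1, a receptor that astrocytes also carry, with Rasip1 and Plvap next. Of 8 tested genes of the brain endothelial barrier, among them Slco1c1, Slc2a1 and Mfsd2a, 0 were called, with medians of -0.10, -0.13 and -0.14 in the same order. Slco1c1 had the highest 5 d mean of this list, 35.5 CPM. Ly6c1, Slc38a5 and Abcb1a had 0 to 2, 0 to 1 and 0 to 13 counts in a library, so the summed level of the list says little about them. Of 8 tested endothelial transcription factors, among them Ets2, Ets1 and Tal1, 0 were called without the batch term, with medians of -0.21, 0.003094 and -0.02. With it Ets1 was called lower with miR-92a-1-5p, and the medians were -0.33, 0.03 and -0.10.

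Summed levels of cycling, precursor and fibroblast markers were on the whole lower in treated than in untreated cultures at 5 d, and their part in the difference of Kdr was not tested. The summed level of 4 cycling markers (Mki67, Top2a, Ccnb1 and Cdk1) was 63.8 to 73.4 CPM untreated, 24.8 to 59.1 with miR-92a-1-5p, 36.0 to 51.8 with miR-124-5p and 32.1 to 53.2 with Mut.oligo. For 5 markers of oligodendrocyte precursors (Olig1, Olig2, Pdgfra, Cspg4 and Sox10) it was 140.1 to 171.9 CPM untreated, 59.9 to 134.1 with miR-92a-1-5p, 86.8 to 151.4 with miR-124-5p and 96.8 to 112.2 with Mut.oligo. For 5 fibroblast and meningeal markers, one of which is also Pdgfra, it was 80.9 to 118.1 CPM untreated and 54.6 to 85.4 over the treated groups. Without the batch term, 0 genes of these lists were called. With it, 4 of 4 cycling markers and 4 of 5 precursor markers were called lower with miR-92a-1-5p, 0 and 2 with miR-124-5p, and 0 and 1 with Mut.oligo. Pdgfra was each time among the precursor markers. Of all genes, 0.352%, 0.0259% and 0.0466% were called in that fit, in the same order. The study had already reported Top2a, Pdgfra and other genes of these lists lower at 5 d, so these calls are not independent of it. Of the fibroblast markers, Pdgfra alone was called lower, with each oligoribonucleotide.

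Of 9 tested pericyte and smooth muscle genes, 0 were called in the fit without batch. In the fit with batch, Acta2 and Tagln were called lower with miR-92a-1-5p and Tagln with the other 2 oligoribonucleotides. The shares of all genes called are those given above for that fit, and the study had already reported both genes lower at 5 d. The list also holds Notch3, Pdgfrb and Vtn. The pericyte gene Kcnj8 was at 0 in 9 of 32 libraries. Pdgfrb, with 134 to 694 counts, Rgs5, with 35 to 276, and Abcc9 and Anpep were counted in every library. Microglia and macrophage markers summed to 8.51 to 16.4 CPM untreated and 8.30 to 17.2 CPM over the treated groups, astrocyte and radial glia markers to 1792 to 2561 and 1617 to 2311 CPM, and blood markers to 0.460 to 1.32 and 0.405 to 1.25 CPM, with 0 genes called in either fit.

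**Figure D5:**
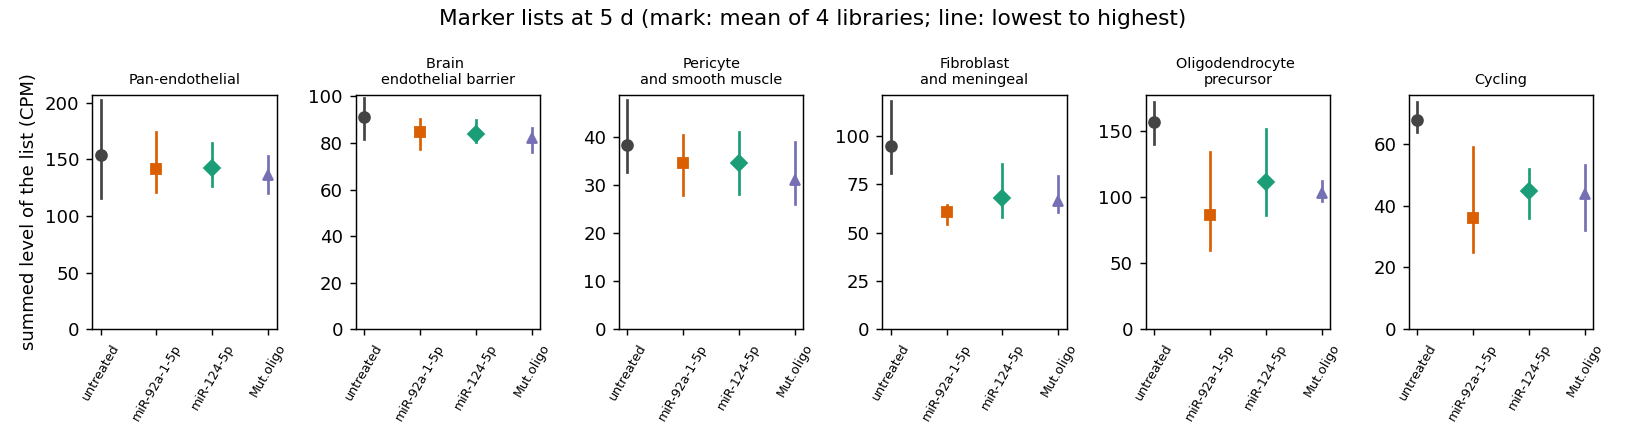
Summed level of 6 marker lists at 5 d in CPM, on axes that start at 0; a mark is the mean of 4 libraries and the line runs from the lowest to the highest. Endothelial, barrier and pericyte lists overlap between untreated and treated cultures, the fibroblast and precursor lists overlap in part, and the cycling list does not overlap.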

How the data were processed

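Poly(A) RNA of 32 cultures was sequenced as stranded 75-base single-end reads. Per the study's methods, the authors aligned reads to GRCm38 with STAR 2.7.3a and counted them per gene and strand with featureCounts (Subread 2.0.0). The deposited file holds raw counts of 49671 genes, all 32 columns were mapped to samples by the labels and 0 were left over. Counts were tested with edgeR 4.0.16 (R 4.3.3, TMM, quasi-likelihood, all 4 groups of a time, no covariate, a choice the study's methods do not settle) on genes that reached 5 counts in 3 or more libraries. This fit does not use the likeness of libraries of 1 batch. Against untreated at 5 d it called fewer genes than the fit with batch. DESeq2 with batch called 115 genes lower and 3 higher with miR-92a-1-5p at 5 d, the numbers the study reported, and DESeq2 alone called 29 and 0. For the other 2 oligoribonucleotides at 5 d, DESeq2 with batch did not give the study's numbers. Called genes had a p below 0.05 after Benjamini-Hochberg adjustment and a log2 difference over 0.5 in size. Tested alternatives were a term for experiment batch, a block for the replicate number, DESeq2 1.42.0 with and without batch, RLE size factors, no filter, the 2 groups alone and each replicate left out. The scripts were tested on simulated data. CPM were computed on TMM-scaled totals, and log2 CPM used a prior count of 2. Correlations used 100000 permutations over libraries, 2-sided and not restricted to batches. The genes, lists and tests were chosen with earlier results of these data known. The named genes are all 10 members, the 10 genes with the highest r with Kdr at 5 d, and of each list the called and the 3 most abundant. Further genes of the lists were named for their counts or their r after these values were seen. Gene limits and exon lengths come from GENCODE M21, a later annotation of the same build. Nrp1 shares exon bases with Mir1903 on its strand, so its count is uncertain by those reads. RefSeq promoters were found for 8 of the 10 genes. Totals set the precision, with 24514090 to 73626029 counts in a library, and p-values cover the spread between libraries only.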

Additional observations from a re-analysis of the deposited data

Results flagged for a closer look

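In 68 groups of 4 libraries tested, 3 held a library that stood apart from the other 3 by more of the group's range than Dixon's critical value for 4 samples allows, and by chance about 1 in 20 groups would. The gaps are shares of the range of log2 CPM, not of the CPM printed beside them, and the share differs between these scales. Flt1 in Mut.oligo 6 h replicate 2 (batch E) had 2 counts, 0.0615 CPM, against 0.283 to 0.355 CPM in the others, a gap of 0.849 of the range. Tek in miR-92a-1-5p 6 h replicate 1 (batch A) had 1 count, 0.0280 CPM, against 0.107 to 0.120 CPM, a gap of 0.903. Pecam1 in miR-92a-1-5p 6 h replicate 2 (batch C) had 20 counts, 0.443 CPM, against 0.670 to 0.727 CPM, a gap of 0.831. Kdr had no such library in any group.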

How the results depend on the processing

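Against untreated at 5 d, the count of called genes of the set was 0 in the fit without batch and 1, each time Kdr, under some alternatives: with batch as a covariate and with DESeq2 plus batch for all 3 oligoribonucleotides (1, 1 and 1), with DESeq2 alone for the control oligoribonucleotide and miR-92a-1-5p (1 and 1), and for the latter also without the filter on low counts (1). These counts only describe Kdr, which was chosen on these contrasts. Leaving out 1 library gave log2 differences of Kdr of -1.41 to -1.0, -0.96 to -0.56 and -1.52 to -1.07. Of 1628 alternative values over the set, 1474 kept their direction and 154 changed it, none of them called. The relation of Kdr with Cdh5 at 6 h was the 1 relation past the threshold by both measures, and 0 were with batch means removed. In untreated cultures, 5 d against 6 h, Nrp1 was not called without the filter (log2 difference -0.49). Leaving out 1 library gave 2 to 4 called genes. Kdr, called without untreated 6 h replicate 2, is only described by this.

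With the replicate number as a block, the log2 difference of Kdr at 5 d was -1.23, -0.77 and -1.32 and the calls of the set were 0, as without it. The numbers did not pair the libraries at 6 h, and did so in part at 5 d, where many same-numbered libraries shared a batch. Deviations of same-numbered libraries correlated above 0.1 in 5 of 24 pairs at 6 h and 13 of 24 at 5 d, against 13 of 14 and 14 of 17 pairs of the same experiment batch. Their median r was -0.048 at 6 h and 0.116 at 5 d, against -0.011 and -0.057 in pairs with different numbers. The block changed no call of the set. Counts under 20 in a library limit Flt1, Flt4, Tek, Tie1 and Cldn5, and for these no difference short of several-fold could be seen.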
